A study of Mus musculus with 386 samples.

Results

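The lung of juvenile mice was compared with the brain, kidney and liver of the same set of animals. All 386 arrays entered the comparison, with the tissue read from the end of each sample's source label, and 98 of them were lung arrays. The groups were 3 wild-derived inbred strains, CAST, PWK and WSB, and their 6 reciprocal F1 crosses, written with the dam first, so that CASTxPWK stands for a CAST dam and a PWK sire. Inbred animals are written in the same way (CASTxCAST, PWKxPWK, WSBxWSB). All animals were 23 days old, of both sexes, and the labels give no treatment, transgene or induced mutation for any group. Lung was measured in 50 females and 48 males, with 10 to 12 animals in each of the 9 crosses, and all 98 animals also gave at least 1 other tissue. The other tissues were measured on 85 brain, 102 kidney and 101 liver arrays. Total RNA came from powdered tissue, so each value is a mixture over all cells of the piece taken, and in such bulk samples fewer cells of a type and less RNA per cell cannot be told apart.

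The lung exchanges gas across alveoli that are lined by flat type I cells and by cuboidal type II cells, which make surfactant, the film of lipid and protein that keeps alveoli from collapsing. Its airways carry secretory club cells and ciliated cells, and its walls hold a dense capillary bed, elastic fibres and smooth muscle. It meets inhaled microbes and particles and therefore also houses many immune cells, among them the alveolar macrophages, which clear surfactant. Among the transcription factors of the epithelium, NKX2-1 is known to bind the promoters of surfactant and secretoglobin genes, and RFX factors together with FOXJ1 act on genes of motile cilia.

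The label was checked on 3 defining genes. Sftpc, the precursor of the surfactant protein made by type II cells, had log2 signals of 13.30, 13.49 and 13.65 (lowest, median and highest of 98 lung arrays), against 5.32, 6.02 and 7.66 in brain, 3.92, 4.84 and 9.57 in kidney and 4.38, 5.08 and 7.84 in liver. Sftpa1, which encodes the main collectin of surfactant, lay at 13.14, 13.33 and 13.53 in lung, and its highest array elsewhere, in liver, read 7.49. Sftpb, whose product spreads surfactant lipid at the air surface, lay at 12.67, 12.89 and 13.09 in lung and reached at most 7.29 elsewhere, in kidney. Every lung array was above every array of the other tissues for all 3 genes, so all lung labels held. Among the 288 other arrays, 8 lay over 1 log2 unit above the median of their tissue in the mean of Scgb1a1, Sftpc, Sftpb and Sftpa1, and the kidney array CASTxWSB 11 stood highest in Sftpc, at 9.57.

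**Figure D1:**
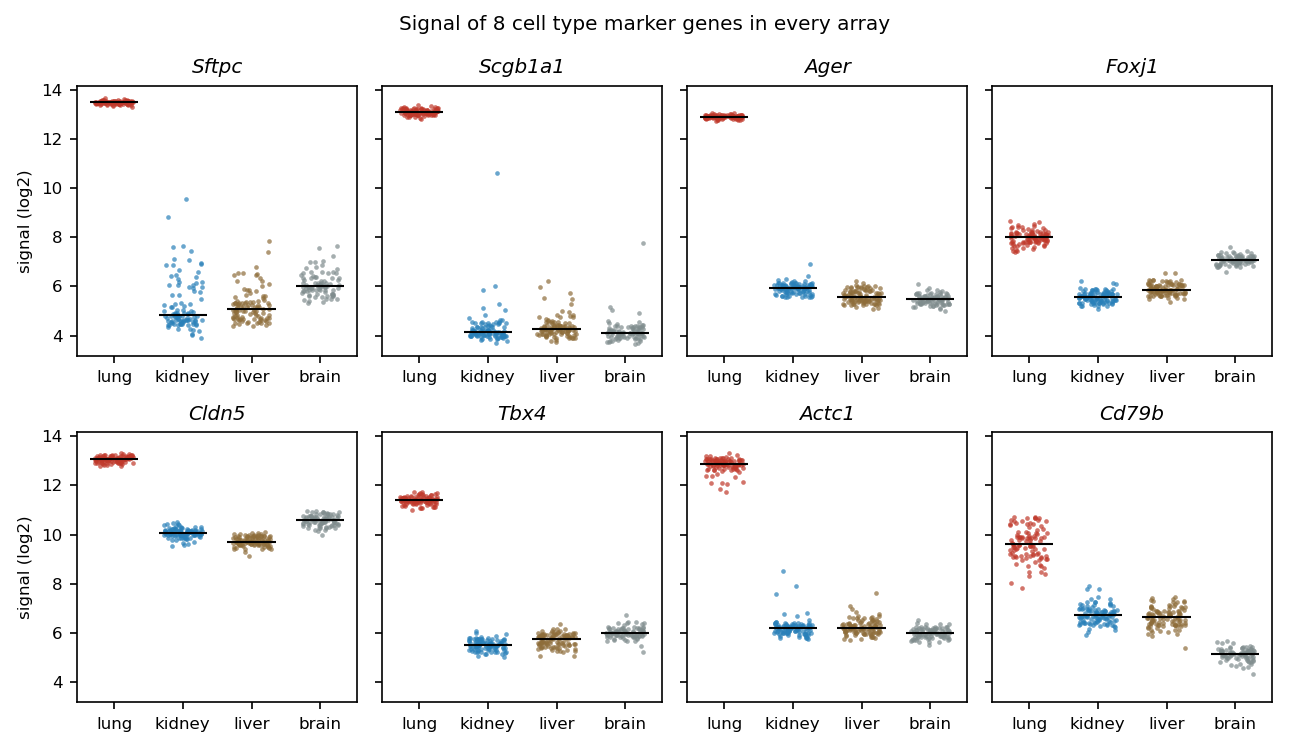
Log2 signal (y axis) of 8 marker genes on each array of lung, kidney, liver and brain (x axis), 1 point per array, with a line at the median. Sftpc lies between 13.30 and 13.65 on the lung arrays and at or below 9.57 on every other array.

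Sequences are shown for promoters of lung genes that carry short motifs of the factors named above, because surfactant, secretory and ciliated genes define the lung epithelium described here. They are RefSeq windows on GRCm38.p6, each running from 250 bases before to 50 after the annotated gene start and given on the plus strand, which is the strand of these genes. In the first 3, capitals mark CTCAAG or its reverse complement CTTGAG, a core letter string of NKX2-1 sites. The windows are Sftpa1 (chr14:41131538-41131837), Sftpb (chr6:72304360-72304659) and Scgb3a1, which encodes a small protein secreted by club cells (chr11:49663345-49663644).
Sftpa1: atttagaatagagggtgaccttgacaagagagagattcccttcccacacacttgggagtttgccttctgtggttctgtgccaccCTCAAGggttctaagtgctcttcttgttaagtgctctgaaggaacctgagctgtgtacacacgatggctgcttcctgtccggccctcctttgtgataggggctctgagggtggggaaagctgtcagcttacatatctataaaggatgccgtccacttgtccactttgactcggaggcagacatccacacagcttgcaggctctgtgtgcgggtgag
Sftpb: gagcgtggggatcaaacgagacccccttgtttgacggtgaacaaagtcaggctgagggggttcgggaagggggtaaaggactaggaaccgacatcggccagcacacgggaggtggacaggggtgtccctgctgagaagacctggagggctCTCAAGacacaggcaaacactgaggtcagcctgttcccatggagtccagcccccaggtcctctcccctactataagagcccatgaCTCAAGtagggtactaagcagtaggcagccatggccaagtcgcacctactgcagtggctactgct
Scgb3a1: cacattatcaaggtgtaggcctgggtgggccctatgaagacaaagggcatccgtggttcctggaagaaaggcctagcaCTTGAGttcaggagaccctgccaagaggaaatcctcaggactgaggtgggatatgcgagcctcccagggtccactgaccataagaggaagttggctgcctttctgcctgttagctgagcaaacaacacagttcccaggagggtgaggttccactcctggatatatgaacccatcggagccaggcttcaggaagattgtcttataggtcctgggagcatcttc
The match began 166 bases before the gene start in Sftpa1, 100 and 15 bases before it in Sftpb, and 172 bases before it in Scgb3a1. Searched on both strands, CTCAAG was present in 15.9% of all 32851 promoter windows of the same length. Counted by gene, it was present for 18% of all 27025 genes with a window and for 18.2% of the 928 lung-enriched genes with a window, nearly the same share. It was present in 5 of the 10 club cell genes with a window and in 4 of the 12 type II cell genes.

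In the next pair of windows, capitals mark GTTGCC or its reverse complement GGCAAC, a core letter string of the X-box bound by RFX factors. They belong to Hydin, which encodes a protein of the central apparatus of motile cilia (chr8:110266727-110267026), and to Dnaic2, the name in the sequence table for a dynein intermediate chain of the ciliary outer arm (chr11:114727169-114727468).
Hydin: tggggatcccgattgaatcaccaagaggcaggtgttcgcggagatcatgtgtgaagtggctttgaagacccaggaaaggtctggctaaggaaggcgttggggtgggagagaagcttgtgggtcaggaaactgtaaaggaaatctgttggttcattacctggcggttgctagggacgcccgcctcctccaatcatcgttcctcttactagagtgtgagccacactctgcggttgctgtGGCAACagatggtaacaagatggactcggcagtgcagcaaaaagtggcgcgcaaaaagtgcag
Dnaic2: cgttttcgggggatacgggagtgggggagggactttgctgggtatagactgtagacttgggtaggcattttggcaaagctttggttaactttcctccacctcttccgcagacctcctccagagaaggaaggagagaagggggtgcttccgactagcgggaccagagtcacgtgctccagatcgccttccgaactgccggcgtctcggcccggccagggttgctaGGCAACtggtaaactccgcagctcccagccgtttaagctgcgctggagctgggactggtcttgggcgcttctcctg
The match began 13 bases before the gene start in Hydin and 26 bases before it in Dnaic2. On both strands, GTTGCC was present in 12.5% of all windows. Counted by gene, it was present for 14.1% of all genes, for 15.7% of lung-enriched genes and for 11 of the 16 ciliated cell genes with a window. The forkhead string TGTTTAC was present in 3.65% of all windows, and by gene for 4.05% of all genes and 4.31% of lung-enriched genes. These matches describe letters in the windows and do not show binding.

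Of 18820 genes tested, 2558 (13.6%) were higher in lung than the mean of brain, kidney and liver, and 2244 (11.9%) were lower. A gene was called where limma gave an adjusted p under 0.05 and the difference was at least 1 log2 unit, a factor of 2. The size requirement carried most of this choice, since 17901 genes passed the adjusted p at any size. The median difference of all genes was -0.12. The 1233 genes (6.55%) that exceeded each of the other tissues by at least 1 log2 unit are referred to as lung-enriched, and the 179 genes (0.951%) that lay at least as far below each of them as lung-depleted. Every lung array exceeded every other array for 858 genes (4.56%), and every lung array lay below every other array for 131 genes (0.696%). By this contrast, 90 genes were at least 4 log2 units higher and 39 at least 4 units lower. Averaging the other tissues shrinks the difference of a gene high in only 1 of them, but not that of a gene high in lung only. The upward and downward counts therefore do not compare like with like. The next highest tissue of the lung-enriched genes was kidney for 548, liver for 373 and brain for 312. Of the 2558 higher genes, 373 were at or above the lung level in another tissue.

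**Figure D2:**
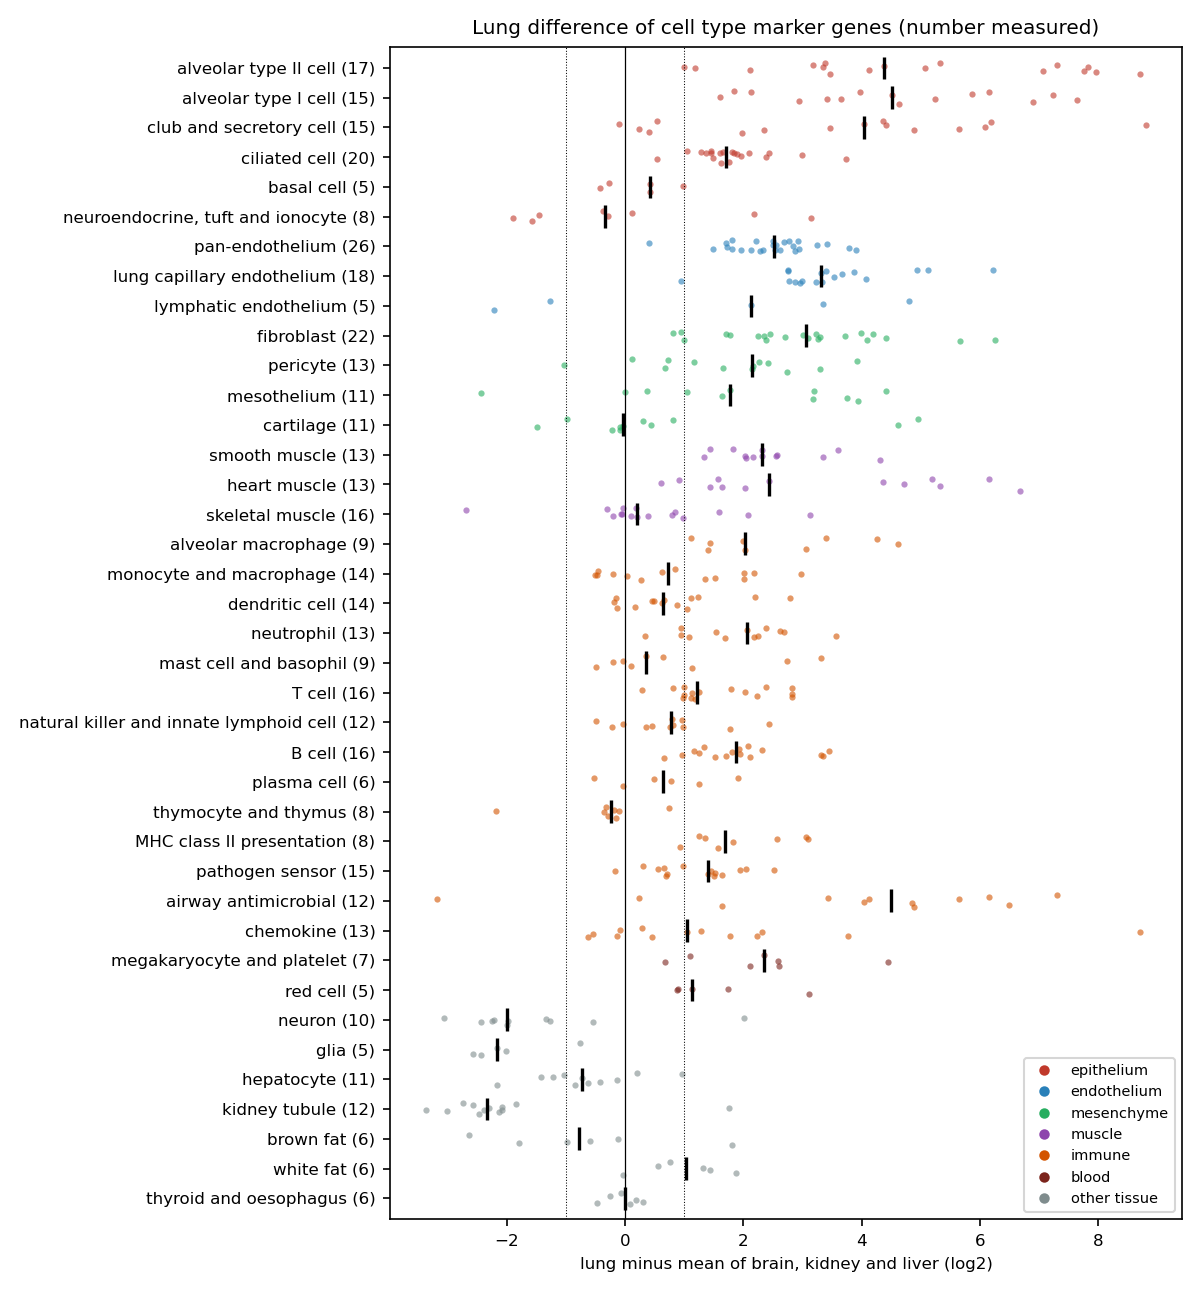
Lung minus the mean of the other tissues, in log2 units (x axis), for the measured members of each cell type list (y axis), 1 point per gene, with a bar at the list's median and dotted lines at 1 log2 unit either way. The medians of the type I and type II cell lists are 4.51 and 4.38, that of the skeletal muscle list is 0.20, and the median of all genes is -0.12.

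Most epithelial genes were higher in lung, and the alveolar lists had high medians. Of 80 measured markers of lung epithelium, 63 were higher, 3 lower and 44 lung-enriched, and their median difference was 2.36. The type II cell list had 16 of 17 genes higher, 10 of them lung-enriched, with a median of 4.38. Among the surfactant proteins themselves, Sftpc was 7.96 ± 0.08 log2 units higher in lung (SE), Sftpa1 7.83 ± 0.03, Sftpb 7.76 ± 0.03 and Sftpd, the second collectin, 7.30 ± 0.03, each past the limma test. Cxcl15, a chemokine of lung epithelium, read 11.74, 12.47 and 12.80 in lung and no more than 5.27 in any other array, a difference of 8.70 ± 0.03. Lamp3, a membrane protein of lamellar bodies, was 7.07 higher.

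Not every type II cell gene was particular to the lung by this measure. Napsa, the aspartic protease that processes surfactant protein precursors, lay at 10.59, 11.48 and 12.17 in lung but at 12.57, 12.97 and 13.26 in kidney, so that every kidney array exceeded every lung array. Lgi3, a secreted leucine-rich repeat protein, was 4.38 above the mean of the others, yet its brain arrays (11.72 to 12.41) lay within its lung range (11.65 to 12.64). The lipid transporter Abca3, which fills lamellar bodies, was the member not called: its difference of 1.0 ± 0.02 fell just under the size limit, and its smallest difference, to kidney, was 0.28. Of 14 genes of surfactant lipid synthesis and clearance, 5 were higher and none was lower.

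All 15 type I cell genes were higher and 12 were lung-enriched, with a median of 4.51. Ager, the receptor for advanced glycation end products that coats the basal face of type I cells, lay at 12.75, 12.91 and 13.06 in lung and at most at 6.91 elsewhere, and was 7.23 ± 0.02 higher. Cldn18, a tight junction protein of alveoli, was 7.64 ± 0.03 higher, and Aqp5, the apical water channel, 5.24 ± 0.02 higher. For each of these 3 genes the lung arrays stood clear of every other array. Col4a3, a chain of the alveolar and glomerular basement membrane, was 1.85 higher than the mean of the others but 0.33 lower than in kidney (difference -0.33).

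Of 15 club and secretory cell genes, 11 were higher and 9 lung-enriched, with a median of 4.04. Scgb1a1, the secretoglobin that defines club cells, read 12.79, 13.10 and 13.37 in lung, with medians of 4.11 in brain, 4.16 in kidney and 4.26 in liver, and had the largest difference of all genes, 8.81 ± 0.06. Its highest array elsewhere was the kidney array named above, at 10.63, which was still below all lung arrays. Cyp2f2, a cytochrome P450 of club cells that activates inhaled aromatics, was 4.36 ± 0.10 above the mean of the others, but its lung (13.18 to 13.56) and liver (13.02 to 13.50) ranges overlapped almost completely. The airway defence protein Bpifa1 spread widely within lung, from 6.64 to 12.20 with a median of 10.17, and the highest brain array, at 10.49, lay within that range. The difference for Bpifa1 was 5.64 ± 0.08.

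Ciliated cell genes were higher by less. Of 20 measured, 19 were higher, 12 were lung-enriched and the median was 1.71. Foxj1, the master factor of motile ciliogenesis, lay at 7.41, 8.0 and 8.65 in lung and at 6.61, 7.08 and 7.61 in brain, whose ventricles carry a ciliated lining. The ends of these ranges overlapped, and Foxj1 was 1.81 ± 0.03 above the mean of the others and 0.92 above brain. Hydin was 2.43 ± 0.03 higher, and Tppp3, a tubulin-binding protein of cilia, 3.73 ± 0.04 higher. None of the 5 measured basal cell markers reached the size limit in either direction, including Trp63, the basal cell factor, at -0.43, and Krt5, a basal keratin, at -0.28. Of 8 neuroendocrine, tuft cell and ionocyte genes, 2 were higher and 3 lower. Cftr, the chloride channel abundant in ionocytes, was 3.15 ± 0.03 higher, whereas Chga, a granule protein of neuroendocrine cells that brain also makes, was 1.90 lower (-1.90).

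Epithelial channel and junction genes were higher in part. Of 12 measured genes of ion and water transport 8 were higher and 1 was lower, with a median of 2.57. The 3 subunits of the epithelial sodium channel, through which alveoli clear fluid, were all higher: Scnn1a by 2.96 ± 0.02, Scnn1b by 4.19 ± 0.02 and Scnn1g by 4.64 ± 0.02. The lower gene was Aqp3, a water and glycerol channel, at -1.28 ± 0.03. Of 14 claudin and tight junction genes 8 were higher and 2 lower. Besides Cldn18, Cldn7 was 2.63 ± 0.03 and Cldn3 1.96 ± 0.03 higher, whereas Cldn2, a cation-permeable claudin of kidney and liver, was -3.49 ± 0.03 and Cldn1 was -1.41 ± 0.02.

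Endothelial genes were higher nearly throughout. Of 49 measured, 45 were higher, 2 lower and 39 lung-enriched, with a median of 2.77. In the pan-endothelial list 25 of 26 genes were higher, and for 21 of them every lung array exceeded every other array. Pecam1, an adhesion molecule at endothelial junctions, lay at 11.96, 12.21 and 12.36 in lung, 8.13 to 8.64 in brain, 10.04 to 10.53 in kidney and 9.0 to 9.54 in liver. Its 4 tissue ranges were disjoint, and the difference was 2.88 ± 0.01. Cldn5, the endothelial claudin, lay at 12.80, 13.08 and 13.30 in lung and next highest in brain, at 9.97, 10.59 and 10.96, a difference of 2.94 ± 0.02. Vwf, the clotting factor stored in endothelial granules, was 3.90 ± 0.02 higher. The member that was not called was Nos3, the endothelial nitric oxide synthase, at 0.40 ± 0.02, and its ranges overlapped between all tissues.

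Of 18 genes of the lung capillary list, 17 were higher and 15 lung-enriched, with a median of 3.32. Scn7a, a sodium channel family member, read 11.71, 12.16 and 12.51 in lung and at most 7.64 elsewhere, and was 6.21 ± 0.04 higher. Foxf1, a mesodermal factor needed for the alveolar capillary bed, was 4.94 ± 0.02 higher, and Tmem100, a membrane protein downstream of BMP signalling, 5.12 ± 0.04 higher. Ace, the enzyme that makes angiotensin II, lay at 12.22 to 12.85 in lung and at 10.39 to 12.14 in kidney, its next highest tissue, and was 3.53 ± 0.02 higher. Car4, the carbonic anhydrase on the capillary surface, was 2.88 above the mean of the others but only 0.55 above kidney. Ednrb, an endothelin receptor, was the uncalled member, at 0.94 ± 0.02. Of 14 measured genes of vasoactive signalling, 8 were higher and 1 was lower. The lower gene was Agt, which encodes angiotensinogen, the substrate of the pathway, at -2.69 ± 0.04. In the vascular growth list all 20 measured genes were higher, among them Kdr, a receptor for VEGF, by 2.53 ± 0.03 and Acvrl1, a receptor for BMP9, by 3.86 ± 0.02.

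The 5 lymphatic markers disagreed with each other. Lyve1, a hyaluronan receptor of lymphatic endothelium, was 4.80 ± 0.03 higher and lung-enriched, while Prox1, the factor that specifies lymphatic endothelium but also marks hepatocytes and neurons, was lung-depleted at -2.22 ± 0.03. In all, 3 of these 5 genes were higher and 2 lower.

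Mesenchymal genes were higher for 39 of 57, with 30 lung-enriched, 3 lower and a median of 2.24. Of 22 fibroblast genes, 20 were higher. Tbx4, a T-box factor of lung mesenchyme, lay at 11.01, 11.41 and 11.74 in lung and no higher than 6.73 in any other array, and was 5.66 ± 0.02 higher. Its relative Tbx5 was 6.26 ± 0.03 higher, with equally separate ranges. Pericyte genes were less uniform, with 9 of 13 higher and 1 lower. Cox4i2, a cytochrome oxidase subunit of lung pericytes and smooth muscle, was 3.93 ± 0.02 higher, whereas Rgs5, a regulator of G-protein signalling that marks brain pericytes, was -1.04 ± 0.02. Rgs5 was lower by 2.71 in WSBxWSB (difference -2.71) and level with the other tissues in CASTxCAST (0.06). Of 11 mesothelial genes, which belong to the pleura in lung, 8 were higher, including Msln by 3.94 ± 0.03 and Upk3b by 3.75 ± 0.03.

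Matrix genes were higher throughout. All 11 elastic fibre genes were higher, with a median of 2.46. Eln, which encodes elastin, lay at 11.68, 12.40 and 12.76 in lung and at 8.11, 8.74 and 9.45 in kidney, and was 4.24 ± 0.03 higher. All 9 interstitial collagen genes were higher, with a median of 2.42, among them Col1a1 by 2.42 ± 0.03 and Col3a1 by 2.56 ± 0.02. All 15 basement membrane genes were higher, 7 of them lung-enriched, with a median of 2.29. Lama3, a laminin chain of epithelial basement membranes, was 3.52 ± 0.03 higher.

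Of 42 muscle genes, 27 were higher, 1 was lower and 19 were lung-enriched, with a median of 1.73. All 13 smooth muscle genes were higher, which included Acta2, smooth muscle actin, by 2.04 ± 0.02, and Cnn1, which encodes calponin, by 4.32 ± 0.04. Acta2 lay at 12.03 to 12.79 in lung and at 11.14 to 11.98 in kidney, so its lung arrays stood above those of all other tissues although it was only 0.85 above kidney.

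Heart muscle genes were also higher in lung, 11 of 13, with 8 lung-enriched and a median of 2.44. Cardiac muscle is known to sheathe the pulmonary veins of mice. Actc1, cardiac actin, read 11.73, 12.88 and 13.31 in lung and at most 8.51 elsewhere, and was 6.68 ± 0.03 higher. Myl7, the atrial light chain, lay at 8.93, 11.31 and 12.44 in lung and no higher than 6.30 in any other array, a difference of 6.15 ± 0.04. Both stood apart from every other array, so sarcomere transcripts were present in all 98 lung samples. Nppa, the atrial natriuretic peptide, behaved differently: its lung arrays ran from 4.39 over 6.89 to 12.71 and its difference was 2.03 ± 0.14. The median of the within-cross spread was 0.18 for lung-enriched genes and 0.17 for all genes, and the spread of Nppa, 2.34, was the widest of the lung-enriched genes. The mean of the heart list ran from 7.53 over 9.20 to 10.74 across lung arrays. Whether the pieces differed in how much of the large veins or of heart they held was not tested.

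Skeletal muscle genes were near the background, with 3 of 16 higher, 1 lower and a median of 0.20. The higher ones were led by Ckm, muscle creatine kinase, at 3.13 ± 0.07. Its lung values ran from 7.43 over 8.95 to 12.02, and the mean of the skeletal list had a median of 5.45 over lung arrays and was highest, at 9.30, in WSBxWSB 9.

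Of 162 immune genes, 94 were higher, 2 lower and 65 lung-enriched, with a median of 1.24. This count also takes in the airway antimicrobial, MHC class II, pathogen sensor and chemokine lists given below. Some of their genes are made by epithelium, such as Cxcl15 in the chemokine list, so the count is not of immune cell markers alone. By the share of higher genes, the lists ranged from alveolar macrophages, with all 9 higher, to thymus, with none of 8 higher and 1 lower. The alveolar macrophage list had a median of 2.04 and 4 lung-enriched genes. In this list 2 genes had their highest mean in kidney and 1 in liver. Itgax, an integrin of alveolar macrophages and dendritic cells, lay at 8.41, 9.26 and 10.50 in lung and at most at 6.13 elsewhere, and was 4.26 ± 0.03 higher. Siglecf, a sialic acid receptor of alveolar macrophages, was 1.99 ± 0.02 higher, with lung arrays above all others. Of 14 genes of monocytes and macrophages in general, 6 were higher. C1qa, a complement chain of tissue macrophages, was -0.52 ± 0.03, with its highest values in liver. Csf1r, the receptor all macrophages carry, was 0.62 ± 0.01 and so below the size limit.

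Granulocyte and lymphocyte genes were higher with more spread between animals. Of 13 neutrophil genes 10 were higher, with a median of 2.07. Cxcr2, the chemokine receptor of neutrophils, lay at 5.51, 6.90 and 8.63 in lung and at most at 5.29 elsewhere, and was 2.69 ± 0.03 higher. Of 16 B cell genes 14 were higher, with a median of 1.87, and of 16 T cell genes 13, with a median of 1.21. Cd79b, a chain of the B cell receptor complex, lay at 7.84, 9.60 and 10.72 in lung and at 5.90, 6.72 and 7.91 in kidney, so that the ranges overlapped at their ends, and was 3.44 ± 0.04 higher. Cd3e, a chain of the T cell receptor complex, was 2.83 ± 0.04 higher. Of 12 natural killer and innate lymphoid genes 2 were higher (16.7%, close to the 13.6% of all genes). Of 7 platelet genes 6 were higher, including Ppbp, a chemokine of platelet granules, by 4.45 ± 0.04, although its highest liver array (10.33) lay within its lung range (8.85 to 11.75).

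Defence genes followed. Of 12 airway antimicrobial genes 10 were higher and 1 lower, with a median of 4.49, and the lower one was Defb1, a defensin abundant in kidney, at -3.19 ± 0.04. Of 8 genes of MHC class II presentation 7 were higher, with a median of 1.69. Lyz1 and Lyz2 encode lysozymes, enzymes that cut bacterial cell walls. Lyz1 lay at 10.89, 12.72 and 13.41 in lung and at most at 7.75 elsewhere, and was 6.50 ± 0.04 higher. Lyz2 was 4.86 ± 0.04 higher. The 2 genes are close copies, and how far their probes cross-react was not analysed here. Cd74, the chaperone of MHC class II, was 3.06 ± 0.03 higher. Of 15 pathogen sensors 8 were higher, including Tlr4, the receptor for bacterial lipopolysaccharide, by 2.04 ± 0.03, and of 13 chemokines 7 were higher.

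Of 29 transcription factors of lung development, 25 were higher, 1 lower and 12 lung-enriched, with a median of 2.17. Nkx2-1 lay at 9.31, 9.63 and 10.03 in lung and at most at 6.17 elsewhere, in brain, and was 4.41 ± 0.02 higher. Foxa1 and Foxa2, pioneer factors of endodermal organs, were 2.15 ± 0.03 and 2.17 ± 0.03 above the mean of the others, but no higher than in liver, with differences of -0.11 and -0.24. Sox9, a factor of lung bud tips that adult glia also carry, was the lower one, at -1.49 ± 0.03.

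Hox genes, which pattern the body axis and are numbered from head to tail, divided by number. Of the 12 measured genes in groups 1 to 5, 6 were higher and none lower, with a median of 0.91. Of the 7 in groups 6 to 8, none was higher and 3 were lower, with a median of -0.87. All 9 in groups 9 to 11 were lower, with a median of -1.35. Hoxa5, a regulator of lung morphogenesis, lay at 8.70, 9.14 and 9.65 in lung and at 6.80, 7.48 and 8.0 in kidney, and was 2.59 ± 0.04 higher, with every lung array above all others. Hoxd8 lay at 4.47, 5.35 and 6.42 in lung and at 10.80, 11.17 and 11.44 in kidney, and was -1.43 ± 0.03. Hoxa9 read 4.09 to 4.86 in lung, 3.98 to 4.87 in brain, 4.39 to 5.32 in liver and 7.83 to 8.99 in kidney. For all 9 genes of groups 9 to 11 the kidney mean was the highest of the 4 tissues, while their lung means lay between 3.86 and 5.2.

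**Figure D3:**
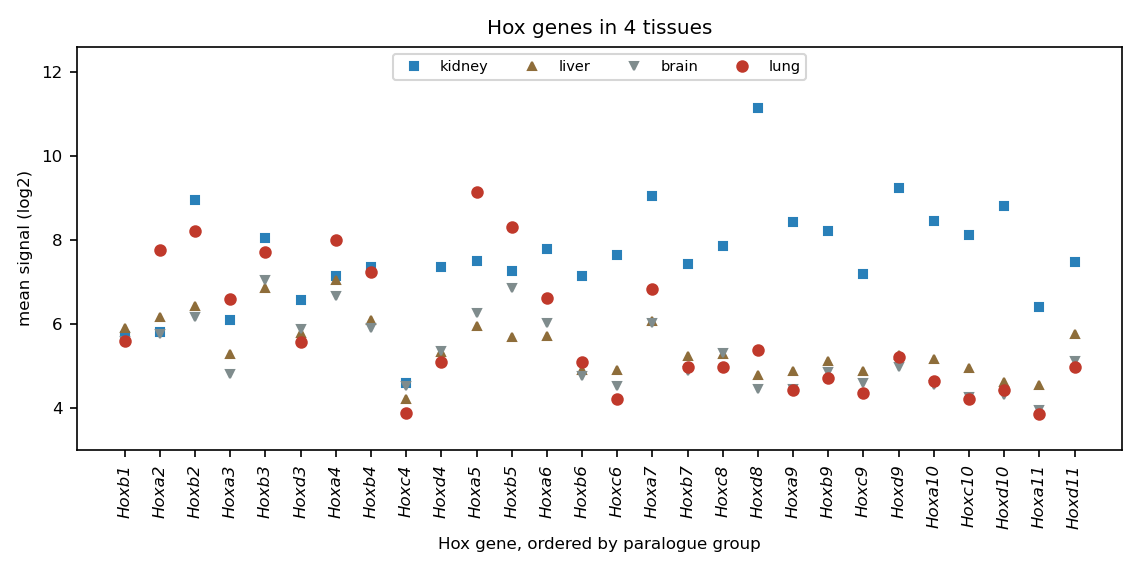
Mean log2 signal (y axis) of each measured Hox gene (x axis, ordered by group number) in lung, brain, kidney and liver, 1 symbol per tissue. Hoxa5 is highest in lung (mean 9.14), and Hoxd8 and Hoxa9 are high in kidney only (means 11.16 and 8.42).

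Of the 2244 genes lower in lung, 1045 had their highest level in brain, 668 in liver and 531 in kidney. Such genes need not be lower in lung than in each tissue, which was the case for the 179 lung-depleted genes. Elovl2, the elongase of long polyunsaturated fatty acids, was the lowest of all: 4.31, 5.15 and 8.84 in lung, 8.36 to 9.51 in brain, 10.43 to 11.62 in kidney and 11.82 to 12.63 in liver, a difference of -5.55 ± 0.04. Its highest lung array reached into the brain range. Gldc, the decarboxylase of the glycine cleavage system, lay at 4.62, 5.30 and 7.36 in lung and at 8.12, 8.55 and 9.02 in brain, the next lowest tissue, and was -4.79 ± 0.03, with all lung arrays below all others. The glutamine transporter Slc38a3 (-4.70 ± 0.06), the dicarboxylate transporter Slc13a3 (-4.48 ± 0.03) and the potassium channel Kcnj10 (-4.34 ± 0.03) were lung-depleted too. For Slc38a3, Slc13a3 and Kcnj10 no lung array reached the lowest array of any other tissue.

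Among the pathway lists, several of metabolism held lower genes. Of 16 genes of amino acid catabolism and the urea cycle 14 were lower, with a median of -1.72, and all 4 measured gluconeogenesis genes were lower, with a median of -2.63. Both pathways are known for liver and kidney. The amino acid list mean had a median of 7.81 in lung and 7.49 in brain, and 1 of its genes was lung-depleted. For gluconeogenesis the medians were 7.74 in lung and 6.31 in brain, and 0 genes were lung-depleted. Lung was thus not below brain in these list means. Genes of energy metabolism, which all 4 tissues use, were lower by less. Of 18 genes of oxidative phosphorylation 10 were lower and none higher (median -1.02), and of 9 citric acid cycle genes 5 were lower (median -1.19). All 18 oxidative phosphorylation genes had their highest mean in kidney and 0 were lung-depleted. Their list mean had a median of 10.64 in lung and 11.21 in brain. Of 13 genes of fatty acid oxidation 2 were lower, a share close to the 11.9% of all genes. Uqcrfs1, the iron-sulphur subunit of complex III, lay at 8.14, 8.82 and 9.45 in lung, 9.06 to 9.97 in brain, 10.76 to 11.52 in kidney and 10.56 to 11.38 in liver, a difference of -1.73 ± 0.02. Its lung and brain ranges overlapped, while kidney and liver stood above both.

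Pgk1, the first ATP-making enzyme of glycolysis, had a lowest value of 9.79 and a median of 10.65 in lung, and all lung arrays lay below 11.10, the lowest value of any other array, a difference of -1.46 ± 0.02. It was 1 of 2 lower genes among 11 of glycolysis, of which 1 was higher, beside 11.9% lower and 13.6% higher over all genes. Of 10 genes of sterol synthesis 5 were lower and none higher, with a median of -0.97, including Cyp51, lanosterol demethylase, at -1.66 ± 0.03 and Hmgcs1, which makes HMG-CoA, at -1.15 ± 0.02. Both Cyp51 and Hmgcs1 were lung-depleted. Of 19 cell cycle genes none reached 1 log2 unit in either direction, and their median was 0.12. Of 12 cytochrome P450 genes 5 were higher and 3 lower: Cyp2b10 was 6.01 ± 0.08 higher and Cyp4b1, which oxidises inhaled compounds, 4.15 ± 0.04, while Cyp3a11, the main drug-metabolising form of liver, was -2.05 ± 0.07.

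The other tissues' own markers were lower or uncalled for the most part. Of 56 measured, 6 were higher and 29 lower, with a median of -1.13. Neuronal genes were lower for 8 of 10, kidney tubule genes for 11 of 12 and hepatocyte genes for 4 of 11. These calls are against the mean of the other tissues. All 10 neuronal genes had their highest mean in brain, all 12 tubule genes in kidney and all 11 hepatocyte genes in liver. The hepatocyte list mean had medians of 8.30 in lung, 5.67 in brain, 7.55 in kidney and 13.18 in liver. Genes of these lists that were higher in lung included Stmn2, a tubulin regulator of neurons, at 2.0 ± 0.04, and Lrp2, an endocytic receptor of kidney tubules, at 1.76 ± 0.04. Stmn2 lay at 8.64 to 10.75 in lung, above kidney (4.93 to 8.55) and liver but below brain (11.79 to 12.58). Lrp2 lay at 8.83 to 10.39 in lung, above brain (4.58 to 6.21) and below kidney (12.12 to 12.93), and the highest liver array (9.13) lay within its lung range.

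Lung arrays were not alike in the transcripts of neighbouring or other organs. The mean of the hepatocyte list ran from 6.26 over 8.30 to 11.70 across lung arrays, that of the kidney tubule list from 5.03 over 5.45 to 8.56, and that of the brown fat list from 5.68 over 6.57 to 8.90. The type II cell and pan-endothelial lists, by contrast, ran only from 11.58 to 12.06 and from 10.82 to 11.20. Not all lists of cells found in lung were so narrow. The club cell list ran from 8.79 to 10.25, the neutrophil list from 5.86 to 8.05 and the B cell list from 6.11 to 8.11. In all, 37 lung arrays lay over 1 log2 unit above the lung median of at least 1 list, 14 of them for brown fat, 14 for skeletal muscle, 11 for hepatocytes, 7 for kidney tubule, 3 for cartilage, 3 for thyroid and oesophagus and 1 for thymus. None did for neurons or glia. The heart muscle and white fat lists were not part of this count. Their highest lung arrays read 10.74 and 8.92, against lung medians of 9.20 and 7.31. The sex comparison within lung lost most of its calls without these 37 arrays, and its values are given both ways.

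**Figure D4:**
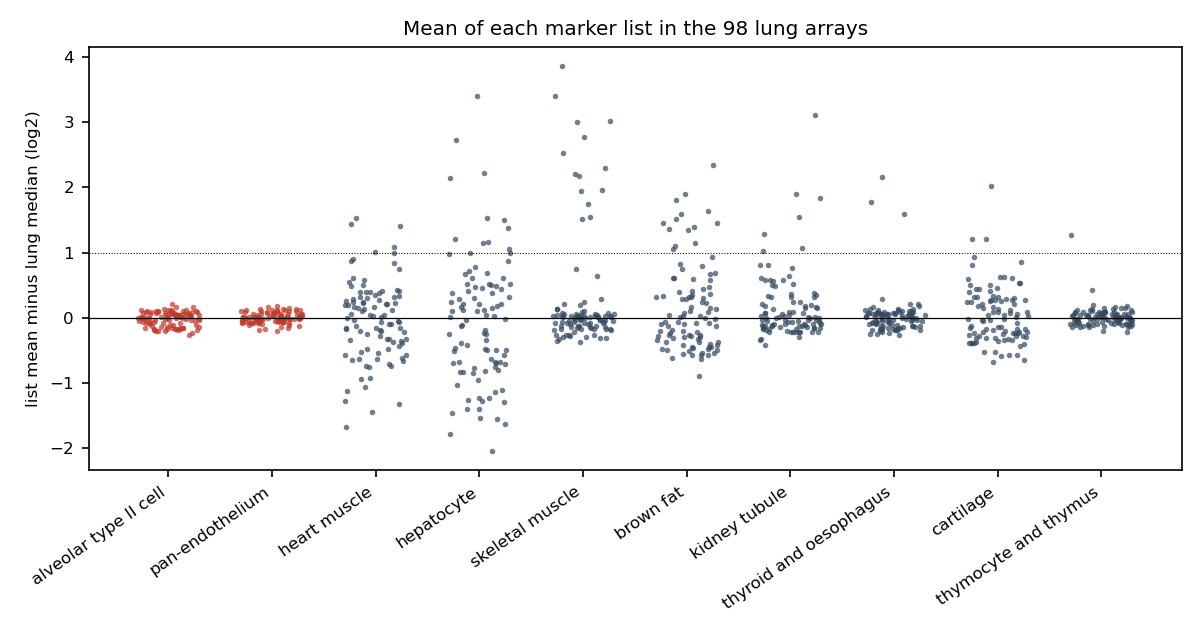
Mean log2 signal over the genes of a list minus its median over the 98 lung arrays (y axis), for lists of lung cell types and of other tissues (x axis), 1 point per lung array, with a dotted line at 1 log2 unit. The type II cell and pan-endothelial lists stay close to 0, while 14 arrays lie above the dotted line for skeletal muscle, 14 for brown fat and 11 for hepatocytes.

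The 9 crosses differed in the size of the lung difference for most genes. By limma's F test with adjusted p under 0.05, the difference depended on the cross for 11288 of all genes (60%) and for 1087 of the lung-enriched genes (88.2%). Within lung, 13909 genes (73.9%) differed among the crosses and 1201 of the lung-enriched genes (97.4%). The sizes were mostly small: the range over crosses had a median of 0.58 log2 units for lung-enriched genes and 0.34 for all genes, and 54 lung-enriched genes had a range of at least 2. Lung-enriched genes were chosen by a higher signal in lung, while all genes were taken without a filter on signal. The shares and ranges of both sets therefore do not compare like with like. Of the 1233 lung-enriched genes, 1117 were at least 1 log2 unit above the other tissues in every cross and 1223 were above them in every cross. Over the 9 crosses, the difference of Sftpb ran from 7.70 to 7.84 and that of the type I cell gene Ager from 7.12 to 7.32. Probes can bind one strain's transcript less well where its sequence differs, which was not analysed here, so a lower signal in a strain need not mean less RNA.

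Chia1, an acidic chitinase secreted in lung and stomach, had the largest F statistic of dependence on the cross among lung-enriched genes. Its lung mean was 5.41 ± 0.32 (SD, n = 10) in CASTxCAST, 12.34 ± 0.16 (n = 12) in PWKxPWK and 11.69 ± 0.27 (n = 12) in WSBxWSB. The F1 crosses with a CAST parent lay between the parents, from 10.60 in CASTxWSB to 10.96 in CASTxPWK, much closer to the other parent on the log2 scale, and PWKxWSB and WSBxPWK read 12.20 and 12.06. On the log2 scale an F1 midway between its parents in unlogged signal also lies nearer to the higher parent. Lung exceeded the other tissues by 0.93 in CASTxCAST and by 7.80 in PWKxPWK. The inbred difference in lung, CAST minus PWK, was -6.96 ± 0.09 (limma, adjusted over all genes).

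Chil3, a chitinase-like protein secreted by alveolar macrophages, ran the other way. Its lung mean was 10.95 ± 0.30 (n = 10) in CASTxCAST, 8.34 ± 0.47 (n = 12) in WSBxWSB and 3.42 ± 0.33 (n = 12) in PWKxPWK, where lung did not exceed the other tissues (difference -0.27). Both F1 crosses of CAST and PWK were nearer to CAST on the log2 scale, at 9.56 and 9.35. The F1 crosses of PWK and WSB read 6.57 and 6.69. Krt79, a keratin listed among alveolar macrophage genes, read 5.81 ± 0.24 (n = 10) in CASTxCAST, 10.87 ± 0.30 (n = 12) in PWKxPWK and 9.47 ± 0.44 (n = 12) in WSBxWSB. Its CASTxCAST difference from the other tissues was -0.18. Chia1 and Krt79 were thus lowest in CAST and highest in PWK, and Chil3 was highest in CAST and lowest in PWK. Chil3 and Krt79, although lung-enriched over all crosses, were each not above the other tissues in 1 of them.

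Wif1, a secreted inhibitor of WNT signalling, was low in a single strain. It read 7.01 ± 0.21 (n = 12) in WSBxWSB against 9.98 ± 0.19 (n = 10) in CASTxCAST and 10.20 ± 0.13 (n = 12) in PWKxPWK, and all 6 F1 crosses read 9.65 or more. CAST minus WSB was 2.94 ± 0.06. Among class II genes, H2-Ea, an MHC class II alpha chain, read 5.08 ± 0.33 (n = 12) in PWKxPWK and 10.49 to 11.92 in the other crosses. H2-Eb1, the beta chain of the same dimer, read 9.99 to 11.18 in the 5 crosses with a CAST parent and 6.54 to 7.03 in the other 4, and its difference from the other tissues ran from 0.80 in PWKxPWK to 2.92 in CASTxCAST. Lyz1 was lowest in CASTxCAST, at 11.18 ± 0.15 (n = 10), and between 12.53 and 13.26 elsewhere. The 10 lung-enriched genes that did not exceed the other tissues in every cross were Bpifa2, Chil3, Cstdc2, Fam183b, Gkn3, H2-Ea, Krt79, Lcn8, Mrgpra6 and Wfdc8.

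**Figure D5:**
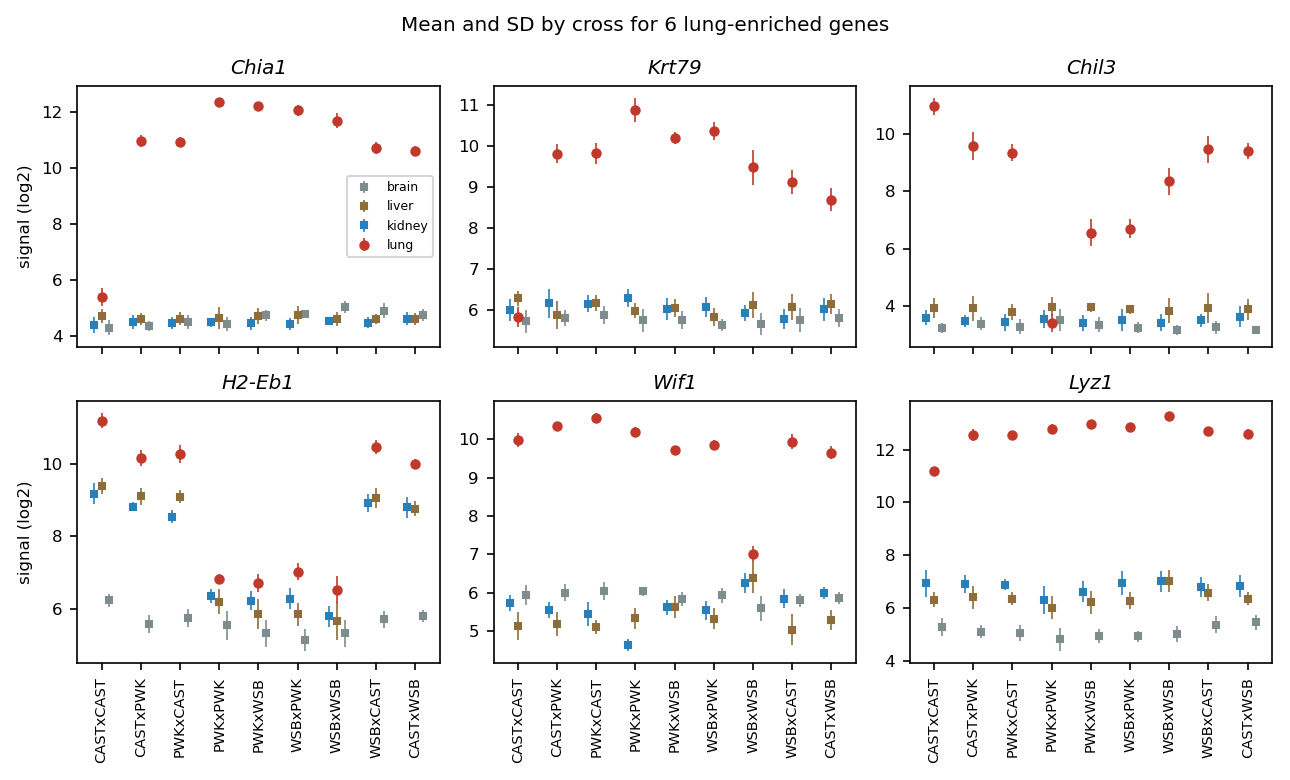
Log2 signal (y axis) of 6 lung-enriched genes by cross (x axis) in lung, kidney, liver and brain, as the mean with bars of 1 SD. In lung, Chia1 is low in CASTxCAST (mean 5.41), Chil3 in PWKxPWK (3.42) and Wif1 in WSBxWSB (7.01), and Lyz1 stays far above the other tissues in all 9 crosses.

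Lung-enriched genes at least 1 log2 unit apart between inbred strains within lung numbered 91 higher and 61 lower in CAST than in PWK. They numbered 50 higher and 61 lower in CAST than in WSB, and 56 higher and 72 lower in PWK than in WSB. Of all 18820 genes, 406 were higher and 310 lower in CAST than in PWK. For CAST against WSB the counts over all genes were 314 and 285, and for PWK against WSB 322 and 325. The mean levels of immune and blood lists in lung varied by cross, with no test of the lists themselves: the mean of the B cell list was 7.74 in CASTxCAST and 6.75 in PWKxWSB, and that of the platelet list 9.09 in CASTxCAST and 7.83 in WSBxWSB.

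Sex differences within lung were small among lung-enriched genes. The counts over all genes include genes of the sex chromosomes. Of all genes, 305 (1.62%) differed between females and males by limma with adjusted p under 0.05, 202 higher in females and 103 lower, and among lung-enriched genes 49 were higher and 26 lower (6.08%). None of these lung-enriched genes differed by 0.5 log2 units or more. The dependence of the lung difference on sex passed for 158 genes (0.84%) and for 27 lung-enriched genes (2.19%). As for the crosses, the shares of all genes and of lung-enriched genes do not compare like with like. The counts varied with the processing. Array weights gave 616 genes that differed by sex within lung, 117 of them lung-enriched, and a random block for runs of nearby animal numbers gave 190. Without the 37 lung arrays described above (20 from females, 17 from males), which also leaves fewer animals, 24 genes differed by sex within lung, 3 of them lung-enriched, and the dependence on sex passed for 45 genes.

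Neutrophil genes were higher in female lung for 9 of 13, and the 13 differences were all above 0, with a median of 0.26 against 0.01 over all genes. Retnlg, a secreted protein of neutrophils, lay at 6.87, 7.93 and 9.80 in 50 females and at 5.09, 7.57 and 9.43 in 48 males. The ranges overlapped widely, and the difference was 0.44 ± 0.08 (limma, adjusted p = 0.000379). Without the 37 arrays 1 of 13 passed, with 11 above 0 and a median of 0.29. Interstitial collagen genes were lower in female lung for 6 of 9, all 9 were below 0 and the median was -0.16. Col1a1 differed by -0.20 ± 0.04 (limma, adjusted p = 0.00229). Without the 37 arrays 0 of the 9 collagen genes passed the limma test after adjustment, 7 had an unadjusted p under 0.05, all 9 were below 0 and the median was -0.14.

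Of 29 measured microRNA genes 4 were higher (13.8%, close to the 13.6% of all genes) and 1 was lower, and their signals on these arrays come from primary or precursor transcripts as well as mature ones. Mir126a, which lies in an intron of the endothelial gene Egfl7, read 4.90, 5.92 and 7.69 in lung and up to 5.17 elsewhere, so that the ranges overlapped at their ends, and was 2.01 ± 0.04 higher. The mature strand of its product, from RefSeq on GRCm38.p6 (chr2:26591402-26591423, plus strand), is shown with the seed in capitals because its host gene was also called.
mmu-miR-126a-3p: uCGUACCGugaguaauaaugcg
Egfl7 itself was 2.33 ± 0.02 higher. Mir143 and Mir145a, neighbouring genes of smooth muscle, were 1.46 ± 0.05 and 1.72 ± 0.04 higher.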

How the data were processed

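Total RNA from 4 tissues was hybridised to Affymetrix Mouse Gene ST plate arrays, per the labels. The authors deposited log2 signals per transcript cluster, made with RMA and Affymetrix Expression Console, per the submitters' processing notes, which give no version. Whether tissues were normalised together, and plate, litter and collection day, are not given in the sources used here. The table held 35556 clusters, 21218 of them with 1 gene symbol, 1881 with several and 12457 with none; of the first, 21185 matched the RefSeq gene table of GRCm38.p6, used for symbols only. The cluster with the highest mean stood for a gene, which left 18820 genes, all tested without a filter on signal, and 1386 of them had several clusters. Array medians ran from 5.89 to 6.36 (5.95 to 6.36 in lung), and no 2 arrays were alike (highest correlation 0.9952). For arrays, their number limits the precision. Replicates are separate animals, and replicate numbers follow record order.

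Tests used limma 3.58.1 with statmod 1.5.0 in R 4.3.3 (lmFit, contrasts.fit, eBayes with a trend), on 36 cross-by-tissue means, with crosses weighted equally; sex and strain within lung used 18 cross-by-sex means, and dependence on sex 72 means. P-values were adjusted by Benjamini-Hochberg over all genes. The fit was tested on simulated data. Tables and plots used Python 3.11.15, pandas 2.3.3, numpy 2.4.6 and matplotlib 3.10.9. The 61 gene lists and the rules were chosen with earlier results of these data known, so list counts are descriptions. Named genes were the 30 highest and 20 lowest differences, the 15 lung-enriched genes with the largest smallest difference, list members, and among lung-enriched genes the 15 most cross-dependent between tissues and within lung, the 5 highest and 5 lowest by sex for each sex test, the 10 widest spreads and 10 microRNA genes. The 10 lung-enriched genes not above the other tissues in every cross were listed after their values were seen. Alternatives changed the signal filter, scaling, array weights, cluster choice, cross and sex terms, animals, threshold and blocks, and left out each cross; 3 that left out arrays were chosen after seeing the data. Arrays of 1 animal share its replicate block, since the labels give the animal. With the animal as a random block the consensus correlation was 0.031. By Xist, 2 arrays went against their sex label, and neither was a lung array.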

Additional observations from a re-analysis of the deposited data

Results flagged for a closer look

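Single lung arrays stood apart from the other animals of their cross in 10 of 108 cross groups tested by Dixon's criterion over 27 genes and lists, where chance gives about 1 in 20. Only the 4 crosses with 10 lung arrays were tested, since this criterion was not applied to groups of 11 or 12. Among list means, CASTxCAST 2 (11.02) for hepatocyte genes and CASTxCAST 10 (8.56) for kidney tubule genes stood above the rest of their cross. So did CASTxPWK 2 (7.19) and PWKxCAST 8 (6.20) for skeletal muscle genes and CASTxPWK 1 (5.71) for thymus genes. CASTxPWK 3 (6.26) lay below the rest of its cross (7.67 to 8.99) for hepatocyte genes. Among genes, CASTxCAST 5 stood above the rest of its cross for Spink5, a protease inhibitor of epithelia (6.71). Below the rest of their cross were CASTxCAST 4 for Cstdc2 (4.17), CASTxPWK 4 for Fam183b (5.72) and PWKxWSB 9 for H2-Eb1 (6.17).

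The lung difference itself varied between the crosses for 15 lung-enriched genes named by the F test of that dependence. From the highest to the lowest cross the difference spanned 7.63 log2 units for Chil3, 6.87 for Chia1, 5.31 for Cstdc2 and 5.05 for Krt79. It spanned 4.55 for Spink5, 4.50 for Wfdc8, a whey acidic protein family member, and 4.08 for Wif1. Narrower spans were found for Fam183b (3.65), Wfdc13 (3.62), Lcn8 (3.55), Gm4956 (3.51), H2-Ea (3.47), Mrgpra6 (3.32), Scube2 (2.71) and Gsn, which encodes gelsolin (2.02). Sequence differences under the probes were not tested.

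The lung difference depended on sex for 27 lung-enriched genes, and the 5 highest and 5 lowest of them are given here. Each passed the limma test of the difference in differences, female minus male. Without the 37 lung arrays high in other-tissue genes, this test passed for 45 of all genes, against 158 with them. Which of the genes below were still called is not shown here. It was larger in females for Cxcr2 (0.36), Retnlg (0.34), Il1f9 (0.34), Anxa8 (0.28) and Gm9733 (0.28). It was smaller in females for Cyp2b10 (-0.56), Mir126a (-0.35), Col6a5 (-0.28), Mettl21e (-0.27) and Crispld2 (-0.25). Such a value can come from a sex difference in lung or in the other tissues, and which of them carried it was not tested.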

How the results depend on the processing

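Of 222 values recomputed for the main counts, 206 stayed within 1.5 times the value reported. With a threshold of 2 log2 units, 927 genes were higher, 665 lower, 356 lung-enriched and 28 lung-depleted. A filter on the lung mean left 786 lower genes and 5 neutrophil genes higher in females; a filter on the mean over tissues left 1407 lower genes and 714 cross-dependent lung-enriched genes, since both removed genes. With these filters the median difference was 0.15 and 0.05, and the share of called genes that were higher 75.4% and 57.9%. Array weights gave 616 genes that differed by sex within lung, 117 of them lung-enriched, and a random block for 26 runs of nearby animal numbers gave 190; the cause was not tested. Without the 37 lung arrays high in other-tissue genes, the dependence on sex passed for 45 genes, sex within lung for 24, of which 3 were lung-enriched, and 1 neutrophil and 0 collagen genes passed, with fewer arrays tested and list medians of similar size. With the animal as a replicate block, 1234 genes were lung-enriched with the block random or fixed and the dependence on sex passed for 166, and it changed no other main count by over 1.5 times. Centring each array on its median moved the median of all genes from -0.12 to -0.22 and the share of called genes that were higher from 53.3% to 48.2%, and quantile normalisation gave -0.05 and 51.1%. None of 11854 values of the called named genes changed direction over 23 settings, and 71 values of 24 genes fell below the threshold. These genes differed by at least 1 log2 unit to begin with and the settings share most arrays, so the direction is a weak check.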

Other observations

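Some list members that the report does not describe also varied by cross in lung. Hc, which encodes complement component C5 and is made in liver and in type II cells, read 8.56 ± 0.32 (SD, n = 10) in CASTxCAST, 10.06 ± 0.19 (n = 12) in PWKxPWK and 12.07 ± 0.11 (n = 12) in WSBxWSB. The lung difference of Cyp1a1, a P450 induced through the aryl hydrocarbon receptor, was 0.60 in CASTxCAST and 4.04 in WSBxWSB. Plac8, a small protein of monocytes and other leukocytes, was 1.19 higher in WSBxWSB and 3.74 higher in WSBxCAST. Mcpt4, a mast cell protease, had lung differences of 0.22 in PWKxPWK and 2.30 in WSBxCAST.

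The remaining lists were mixed. Over all genes, 13.6% were higher and 11.9% lower. Lists near that share of higher genes were brown fat (16.7%), cartilage (18.2%) and antioxidant (18.8%). Of 14 dendritic cell genes 5 were higher, led by Ccr7, the receptor that guides these cells to lymph nodes (2.79 ± 0.03). Of 9 mast cell and basophil genes 3 were higher, of which Gata2 (3.31 ± 0.02) and Kit (2.74 ± 0.02) are also known from other cells. Of 6 plasma cell genes 2 were higher, and of 5 red cell genes 3, led by Alas2, the first enzyme of haem synthesis in red cells (3.11 ± 0.04). Of 11 cartilage genes 2 were higher, Cytl1 (4.95 ± 0.03) and Chad (4.61 ± 0.03), and 1 was lower, Sox9. Of 6 white fat genes 3 were higher, of 6 brown fat genes 1 was higher and 2 lower, and of 5 glial genes 4 were lower. None of 6 thyroid and oesophagus genes reached 1 log2 unit in either direction. Of 16 antioxidant genes 3 were higher, Gpx2 (3.29 ± 0.04), Gpx3 (2.37 ± 0.04) and Sod3, the extracellular superoxide dismutase (1.48 ± 0.02), and of 9 peroxisome genes 4 were lower.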
